A study of Mus musculus with 6 samples.

Results

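The 6 genes described here mark or act in blood vessels: Tie1, Cd34, Aqp1, Vcam1, Nr2f2 and Hey1. They were taken by symbol from the platform's probe-gene table, as every probe set with values whose single gene symbol was 1 of these names. All 6 genes were found among the 494 measured genes, and 8 of their 13 listed probe sets were among the 643 gene probe sets with values: 3 for Nr2f2 and 1 for each other gene. The other 5 probe sets, 3 of Nr2f2 and 2 of Vcam1, were not analysed here. Each value is the RNA level of 1 whole mouse heart on 1 Affymetrix 3' expression array, on the log2 scale, on which a difference of 1 is a doubling. The compared groups were 3 wild-type hearts and 3 hearts of mice lacking Pgc1b, a coactivator of nuclear receptors that is now called Ppargc1b, and the labels call the hearts of a group biological replicates. All 6 mice came from a mixed sv129 and C57BL/6 background, and their age and sex are not given in the sources used here. The deleted gene itself was not analysed here and gives no check of the genotypes.

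Blood vessels are lined by endothelial cells, which carry solutes and cells between blood and heart muscle, and the heart is among the most densely vascularised tissues. Tie1 is an endothelial receptor tyrosine kinase of the angiopoietin system, and Cd34 is a sialomucin on the surface of endothelial cells and of blood progenitors. Aqp1 is a water channel of capillary endothelium and red cells. Vcam1 is an adhesion molecule that binds leukocyte integrins and is induced by NF-kB in activated endothelium. Nr2f2 (COUP-TFII) is an orphan nuclear receptor known for venous identity, and Hey1 is a transcriptional repressor downstream of Notch known for arterial identity. Several are not restricted to endothelium: Cd34, Vcam1 and Nr2f2 are also expressed by stromal cells. Pgc1b works with oestrogen-related receptors, whose core binding site is AAGGTCA.

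RefSeq promoter sequences (GRCm38.p6) were found for 4 of the 6 genes, Tie1, Cd34, Aqp1 and Nr2f2. The 250 bases before the start were searched on both strands for the oestrogen-related receptor core site AAGGTCA, for GTGGGAA (bound by RBPJ, the effector of Notch), for CCGGAAG (an ETS factor site, common in endothelial genes) and for an NF-kB motif (GGG, any 2 bases, then TTTCC). Of 32851 RefSeq promoters searched in the same way, 4.08% held the receptor core site, 5.42% the RBPJ letters, 6.91% the ETS letters and 1.41% the NF-kB motif. Among the 4 genes there was 1 match, the RBPJ letters in Tie1, on the opposite strand, 16 to 10 bases before the start. The sequences of Tie1, which held the match (in capitals), and of Aqp1, which had the largest difference between the genotypes and no match to the 4 motifs, are given 5' to 3' on the strand of the gene.
Tie1, chr4:118489850-118490099, minus strand: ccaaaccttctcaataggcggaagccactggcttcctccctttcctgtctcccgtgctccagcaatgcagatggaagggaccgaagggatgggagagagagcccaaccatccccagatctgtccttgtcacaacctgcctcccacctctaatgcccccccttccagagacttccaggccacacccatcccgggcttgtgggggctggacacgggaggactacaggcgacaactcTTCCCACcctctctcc
Aqp1, chr6:55336049-55336298, plus strand: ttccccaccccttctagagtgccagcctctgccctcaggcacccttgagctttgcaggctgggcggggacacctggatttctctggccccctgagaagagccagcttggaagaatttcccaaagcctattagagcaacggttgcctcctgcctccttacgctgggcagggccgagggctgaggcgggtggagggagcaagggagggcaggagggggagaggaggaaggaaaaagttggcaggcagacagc
A match describes letters in this window and was not tested as a binding site.

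The Tie1 receptor had overlapping levels in both genotypes. Its log2 values were 7.73, 7.69 and 7.60 in wild-type replicates 1, 2 and 3, and 7.48, 7.56 and 7.74 in knockout replicates 1, 2 and 3. The highest and the lowest of the 6 hearts were both knockouts. The means were 7.67 ± 0.06 for wild type and 7.59 ± 0.14 for the knockout (SD, n = 3 each), a difference of -0.08 (95% interval -0.29 to 0.13), or a knockout level of 94.5% of wild type (81.7% to 109.2%). In limma, with Benjamini-Hochberg adjustment over the 643 probe sets, the adjusted p was 0.745. The difference was -0.02 without knockout replicate 1 and -0.16 without knockout replicate 3. As these are whole hearts, fewer endothelial cells and less RNA per cell cannot be told apart in this or any later value.

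Cd34 varied least of the 6 genes. Wild-type hearts stood at 9.11, 9.14 and 9.27 and knockout hearts at 9.10, 9.19 and 9.16 in replicates 1, 2 and 3, a range of 0.17 over all 6 hearts. The group means were 9.17 ± 0.09 and 9.15 ± 0.04 (SD, n = 3 each). Their difference of -0.02 had the narrowest interval of the 8 probe sets, -0.20 to 0.15, which spans 87.2% to 111.2% of the wild-type level (adjusted p = 0.941 in limma). Its sign turned when wild-type replicate 3 (0.03) or knockout replicate 1 (0.0008) was left out. Changes smaller than these bounds, which are not adjusted for the number of probe sets, were not detectable for Cd34.

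Aqp1, the endothelial water channel, had the largest difference of the 6 genes, and the spread among knockout hearts was of the same size as that difference. Wild-type replicates 1, 2 and 3 stood at 10.77, 10.88 and 10.95. Knockout replicate 1 stood at 10.78, inside the wild-type range, whereas knockout replicates 2 and 3 stood at 11.24 and 11.43, above all wild-type hearts. The means were 10.87 ± 0.09 and 11.15 ± 0.34 (SD, n = 3 each), and the pooled SD was larger than that of 89.7% of the 643 probe sets. The difference of 0.28 (interval -0.09 to 0.66) did not pass in limma (unadjusted p = 0.118, adjusted p = 0.550), although 93.8% of the 643 probe sets had a smaller difference in size. The value rested on single arrays: it was 0.47 without knockout replicate 1 (unadjusted p = 0.00237 and adjusted p = 0.163 in limma) and 0.14 without knockout replicate 3.

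Other measures also differed between the arrays with high and low Aqp1 or between the genotypes, and their part in the Aqp1 difference was not tested beyond the fits given here. The median over all gene probe sets was 7.61 and 7.58 on the arrays of knockout replicates 2 and 3, and 7.45 to 7.54 on the other 4 arrays. With every array centred on its median, the Aqp1 difference was 0.24. The first principal component over all gene probe sets, with 33.0% of the variance, also set those 2 arrays apart, at -3.22 and -2.86 beside -0.09 to 2.57 on the other 4. The 3' minus 5' signal of the Actb control probe sets, a measure of RNA quality, was 0.74 to 0.77 on wild-type and 0.51 to 0.73 on knockout arrays. It was lowest in knockout replicate 3, the heart with the highest Aqp1. The same signal of the Gapdh control probe sets overlapped between the genotypes, with -0.02 to 0.14 on wild-type and -0.004 to 0.20 on knockout arrays. It was lowest in wild-type replicate 1. The poly-A control probe sets also overlapped, averaging 6.76 to 7.56 on wild-type and 6.49 to 7.61 on knockout arrays. Their mean was lowest in knockout replicate 3 and highest in knockout replicate 1. The hybridisation spikes, control RNAs added before hybridisation, averaged 9.69 to 10.15 on wild-type and 9.32 to 9.68 on knockout arrays. A fit with this level as covariate gave an Aqp1 difference of 0.08 (interval -0.49 to 0.65). The spike ranges of the genotypes did not overlap, so spike level and genotype cannot be well separated in this or any later fit with this covariate. Red cells also carry Aqp1. Of 19 listed red-cell markers 2 were measured, and their mean lay between 5.59 and 5.80 in the wild type and between 5.73 and 6.05 in the knockout. The differences were 0.31 for the brighter probe set of Bpgm (interval -0.15 to 0.78), 0.46 for its dimmer probe set (-0.07 to 1.00) and 0.13 for Car1. Car1 had low values, with means of 3.92 for wild type and 4.05 for the knockout, and it was not tested whether it reads above background. By the brighter probe set Bpgm, an enzyme that sets the oxygen affinity of haemoglobin, was highest in knockout replicate 1 (8.06), the knockout heart with the lowest Aqp1. It stood at 7.37 and 7.91 in knockout replicates 2 and 3. The part of red cells in the Aqp1 values was not tested. The globin genes were not analysed here.

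Vcam1, the leukocyte adhesion molecule, had a lower mean in knockout hearts, again with overlap. The wild-type values were 6.72, 6.94 and 7.12 and the knockout values 6.47, 6.81 and 6.94 in replicates 1, 2 and 3. Only knockout replicate 1 lay below all wild-type hearts. From 6.93 ± 0.20 to 6.74 ± 0.24 (SD, n = 3 each), the difference was -0.19 (interval -0.53 to 0.16), a knockout level of 87.8% of wild type (adjusted p = 0.667 in limma). It shrank to -0.05 without knockout replicate 1, and was -0.29 without wild-type replicate 1 and -0.29 without knockout replicate 3. With the spike level as a covariate it was -0.47 (interval -0.91 to -0.02, adjusted p = 0.466 in limma). In each genotype the 3 hearts had the same order by Vcam1 as by Aqp1, while the differences between genotypes of these 2 genes had opposite signs.

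**Figure D1:**
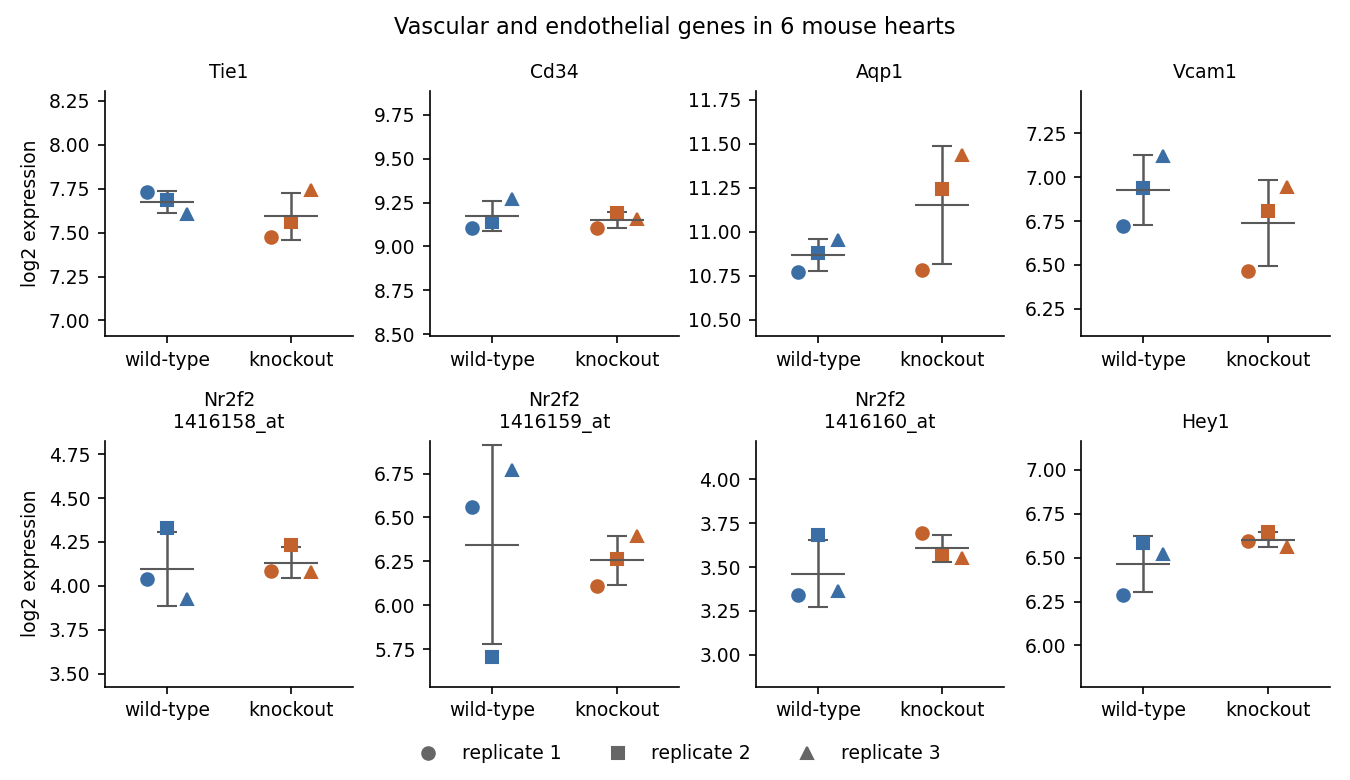
Log2 expression (y axis, each panel spanning the same 1.4 log2 units) of the 8 probe sets in wild-type (blue) and knockout (orange) hearts. Marker shapes give the replicate number, and grey bars show mean ± SD of 3 hearts. The groups overlap in all 8 panels, and Aqp1 in knockout replicates 2 and 3 (11.24 and 11.43) lies above the wild-type hearts.

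Nr2f2, the venous regulator, was read by 3 probe sets, 1 of which ran opposite to the other 2 from heart to heart. The probe set 1416159_at had wild-type values of 6.56, 5.70 and 6.77 and knockout values of 6.11, 6.26 and 6.39 in replicates 1, 2 and 3. Wild-type replicate 2 was its lowest heart by 0.41, and this was the most variable of the 8 probe sets, with a pooled SD larger than that of 98.0% of the 643. The probe set 1416158_at read 4.04, 4.33 and 3.92 in the wild type and 4.09, 4.23 and 4.08 in the knockout, and here wild-type replicate 2 was the highest. The probe set 1416160_at read 3.34, 3.68 and 3.36 in the wild type and 3.70, 3.57 and 3.55 in the knockout, where wild-type replicate 2 was the highest of its genotype.

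The 3 probe sets of Nr2f2 did not share a direction between the genotypes with all 6 arrays. The differences were -0.09 for 1416159_at (interval -0.69 to 0.51), 0.04 for 1416158_at (-0.23 to 0.30) and 0.14 for 1416160_at (-0.11 to 0.40), with adjusted p = 0.925, 0.929 and 0.659 in limma. Over the 6 arrays 1416159_at had a Pearson r of -0.89 with 1416158_at and -0.88 with 1416160_at, and the latter pair had 0.71. Of 118 pairs of probe sets of 1 gene in the table, 28.0% had a negative r and the median was 0.43. These are descriptions over arrays that all probe sets share. The probe sets 1416158_at and 1416160_at were dim: only 10.9% of the 643 probe sets had a lower mean than 1416158_at, and 6.22% a lower mean than 1416160_at. Detection calls were not used here, so it was not tested whether they read above background. Without wild-type replicate 2 the differences became -0.41 for 1416159_at and 0.25 for 1416160_at (adjusted p = 0.547 for both in limma). Other alternatives gave other signs: all 3 differences were positive without wild-type replicate 1 (0.02 for 1416159_at, 0.01 for 1416158_at and 0.08 for 1416160_at) and with array weights (0.04, 0.01 and 0.09), and without wild-type replicate 3 that of 1416159_at was 0.12 and that of 1416158_at -0.05.

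Hey1, the arterial Notch target, had a higher mean in knockout hearts. Wild-type hearts stood at 6.29, 6.58 and 6.52 and knockout hearts at 6.60, 6.64 and 6.56 in replicates 1, 2 and 3. All knockout hearts exceeded the wild-type mean, but wild-type replicate 2 lay above knockout replicate 3, and wild-type replicate 1 was the lowest by 0.24. The means were 6.46 ± 0.16 and 6.60 ± 0.04 (SD, n = 3 each), a difference of 0.14 (interval -0.08 to 0.36) and a knockout level of 110% of wild type (adjusted p = 0.627 in limma). Without wild-type replicate 1 it fell to 0.05, and with the spike covariate to 0.03 (interval -0.30 to 0.36). The arterial and the venous regulator were not compared with each other, since different probe sets have no common scale.

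Taken over all 8 probe sets, none was called in limma at an adjusted p under 0.05, where the same held for 0% of all 643 probe sets. None had an unadjusted p under 0.05, against 10.3% of the 643. In none did the 3 knockout hearts lie wholly above or below the 3 wild-type hearts, against 18.7% of the 643. The counts of non-overlap rested on single arrays, and leaving out an array can only keep or raise such a count. Without wild-type replicate 2 the count was 4 of the 8 probe sets (27.5% of all). These 4 were the 3 probe sets of Nr2f2 and that of Hey1, of which Nr2f2 1416159_at lay lower in the knockout and the others higher. Without knockout replicate 1 the count was 1 of 8 (33.4% of all), and without knockout replicate 3 it was 2 of 8 (27.7% of all). The differences were positive in 4 probe sets and negative in 4, and positive in 3 after centring of the arrays. Their median size was 0.11, beside 0.10 over all probe sets. The intervals reached from 0.18 to 0.60 log2 units on either side, so smaller differences were not detectable with 3 arrays per genotype. They are not adjusted for the number of probe sets, and a call at an adjusted p under 0.05 takes a larger difference.

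**Figure D2:**
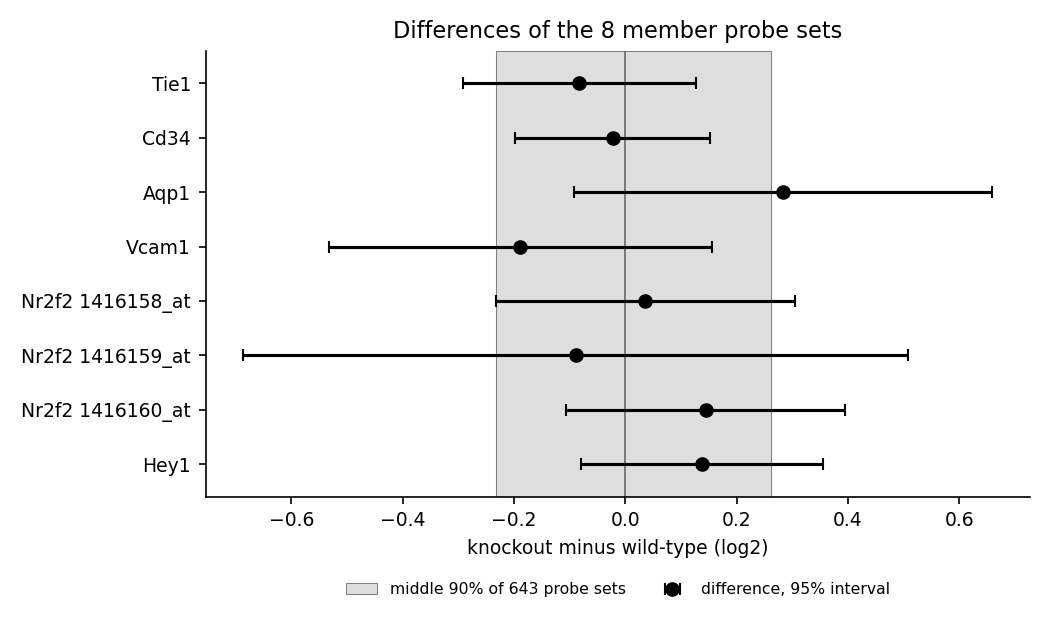
Difference between knockout and wild-type hearts (x axis, log2) for each of the 8 probe sets, with 95% intervals from limma; the grey band spans the middle 90% of the differences of all 643 probe sets, from -0.23 to 0.26. Every interval includes 0, and Aqp1 at 0.28 is the only point outside the band.

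A change in the amount of vessel tissue would move genes of the vessel wall in 1 direction, and the mean over the 6 genes was used to describe this, with the probe set of highest mean for Nr2f2. It was 7.86, 7.82 and 8.04 in wild-type replicates and 7.76, 7.95 and 8.04 in knockout replicates 1, 2 and 3. Both genotypes covered almost the same range. The group means were 7.91 ± 0.12 and 7.92 ± 0.14 (SD, n = 3 each), a difference of 0.01, beside 0.01 for the mean over all 494 genes. Its sign was not stable: it was -0.12 with the spike covariate, -0.04 with centring, -0.05 without knockout replicate 3 and 0.09 without knockout replicate 1, each moved by less than the SD between hearts (0.13). Without Aqp1 the difference of the remaining 5 genes was -0.05, where Tie1, Cd34, Vcam1 and Nr2f2 had lower and Hey1 had higher means. Of the 6 genes 5 were above their own mean of 6 hearts in knockout replicate 3, 1 in knockout replicate 1, and 2 or 3 in each other heart.

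**Figure D3:**
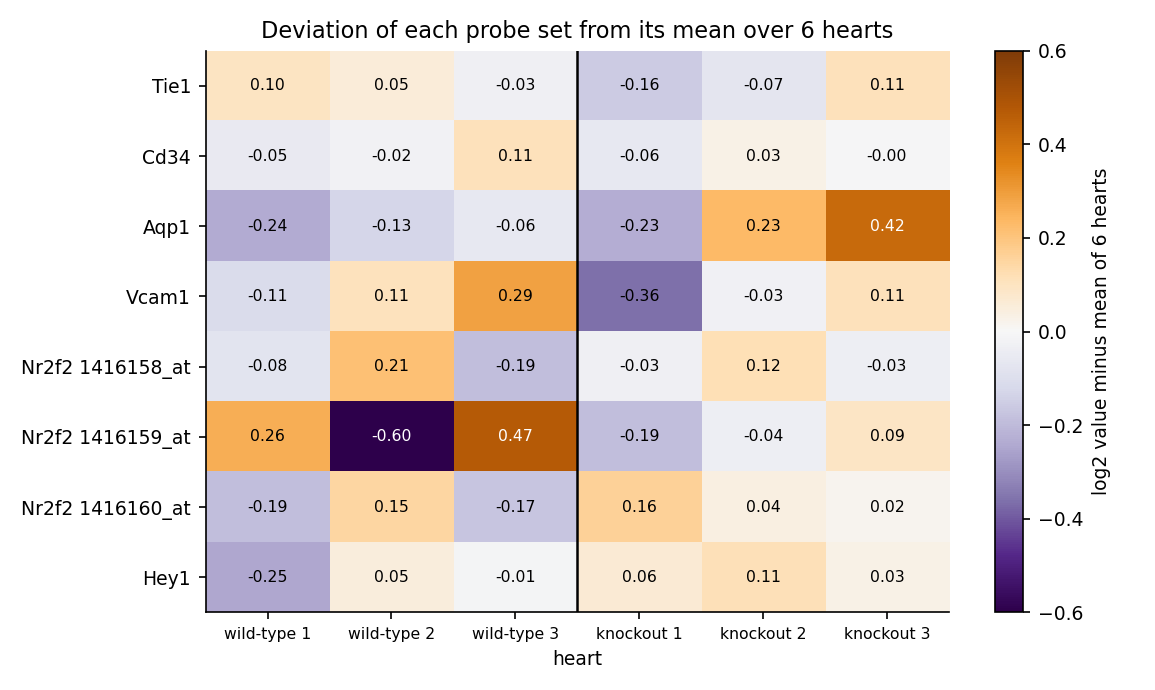
Deviation of each probe set (rows) from its mean over the 6 hearts (columns, wild-type left of the line and knockout right of it), in log2 units, printed and coloured on 1 scale from -0.6 to 0.6. Aqp1 in knockout replicate 3 (0.42), Vcam1 in knockout replicate 1 (-0.36) and Nr2f2 1416159_at in wild-type replicates 2 and 3 (-0.60 and 0.47) stand out, and no heart has 1 sign in every row.

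From heart to heart within a genotype the genes varied together in part. After each genotype's mean was subtracted, 12 of the 15 pairs of the 6 genes had a positive Pearson r over the 6 arrays, with a median of 0.37, beside 52.8% positive and a median of 0.04 over all 121771 pairs of the 494 genes. The highest values were 0.91 for Aqp1 with Vcam1, 0.79 for Cd34 with Vcam1 and 0.68 for Tie1 with Aqp1. The lowest were -0.49 for Nr2f2 with Hey1 and -0.40 for Tie1 with Hey1. Pairs share genes and all share the same 6 arrays, so they are not independent and are given as a description. This depended on array-level scaling. With each array centred on its median, 8 of 15 pairs were positive with a median of 0.08 (57.8% and 0.13 over all pairs), and after quantile normalization 7 of 15 with a median of -0.03 (50.4% and 0.01 over all pairs). The Nr2f2 value depended on its probe set as well, with 11 and 9 of 15 positive pairs when 1416158_at and 1416160_at stood for the gene.

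For each gene the closest of the other 488 genes was taken by Pearson r over the 6 arrays, as a description over few points among many genes. Aqp1 was closest to Sgk1, a serum- and glucocorticoid-regulated kinase, at 0.96, and 7 further genes exceeded 0.9 with it. The difference of Sgk1 was 0.27 (interval -0.05 to 0.59). Cd34 was closest to the matrix crosslinking enzyme Lox (0.96), Nr2f2 to Naa60 (0.96), Vcam1 to the amino acid transporter Slc38a1 (0.95), Tie1 to the mitochondrial peroxiredoxin Prdx3 (0.94) and Hey1 to Anapc1, a subunit of the anaphase-promoting complex (0.93). Adjusted p-values of these 6 genes ran from 0.508 to 0.947 in limma.

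Other vascular genes were sparsely measured. Of 205 further genes in 6 vascular lists 7 had values, of which 3 had higher and 4 lower means in knockout hearts, with a median difference of -0.06. In limma 0 of the 7 had an adjusted or an unadjusted p under 0.05, against 0% and 10.3% of all 643 probe sets. In the list of endothelial receptors and junctions the 1 further gene was Gja4, the connexin 37 of arterial endothelium, with means of 6.54 ± 0.10 for wild type and 6.37 ± 0.20 for the knockout (SD, n = 3 each) and a difference of -0.16 (interval -0.43 to 0.10). In the list of angiogenic ligands and growth factors 4 genes were measured. The vasodilator peptide gene Adm differed by -0.10 (-0.44 to 0.24). Hif1a, a hypoxia-regulated transcription factor that the list also held, differed by -0.11 (-0.36 to 0.15). The matricellular gene Ccn1 differed by 0.12 and the angiogenesis inhibitor Serpinf1 by 0.01. Ets2, an ETS transcription factor, differed by -0.06 (-0.22 to 0.11). Vcl, the vinculin of adhesion sites, entered through the list of leukocyte adhesion molecules, so the counts above are not of endothelial genes alone. Vcl differed by 0.18 (-0.07 to 0.43), and by 0.22 (-0.27 to 0.71) in its dimmer probe set. No further gene of the Notch list or of the water channel list was measured. The endothelial markers Pecam1, Cdh5, Kdr, Flt1, Tek, Cldn5, Vwf and Emcn were not analysed here.

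Markers of other cell types give the surroundings of these values. Of 22 heart muscle markers 3 were measured, and their mean lay between 12.73 and 12.84 in the wild type and between 12.75 and 12.85 in the knockout, so the tissue label was matched by Actc1 (14.11 in wild-type hearts) and Fabp3 (13.53). Fibroblasts and other stromal cells, which can express Cd34, Vcam1 and Nr2f2, had 4 of 24 markers measured (Gsn, Fmod, Mmp2 and Lox), with a mean between 7.90 and 8.42 in the wild type, a range that held all 3 knockout hearts (highest 8.09), and 0 of 4 called in limma (0% of all 643 probe sets). Their part in the values of these genes was not tested. Markers of smooth muscle and pericytes, of fat and of skeletal muscle were not analysed here. Of the leukocyte list Mpo was measured (0.10, interval -0.10 to 0.30) and of the epicardial and nerve list Tubb3 (0.14, interval -0.38 to 0.66). Both were dim, with wild-type and knockout means of 3.50 and 3.59 for Mpo and of 3.34 and 3.48 for Tubb3. It was not tested whether they read above background.

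**Figure D4:**
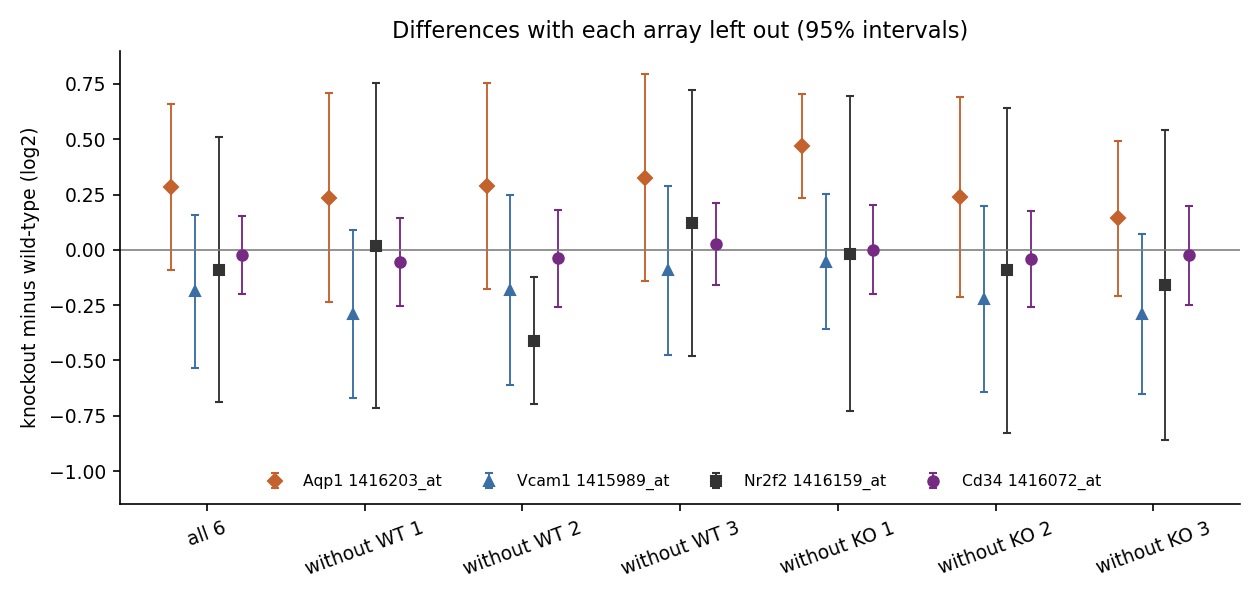
Knockout minus wild-type difference (y axis, log2, 95% intervals from limma) of Aqp1, Vcam1, Nr2f2 1416159_at and Cd34 with all 6 arrays and with each array left out (WT wild-type, KO knockout). Aqp1 runs from 0.14 to 0.47 and Nr2f2 1416159_at from -0.41 to 0.12, and the intervals that leave out 0 are those of Aqp1 without knockout replicate 1 and of Nr2f2 1416159_at without wild-type replicate 2.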

How the data were processed

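Frozen hearts gave Trizol- and column-purified RNA that went through whole-transcriptome amplification and then cRNA labelling, per the labels' protocols, so amplification is part of the spread. The submitters' processing notes name RMA, Partek and GCOS, without roles, for the log2 values that the authors deposited. RMA gives arrays a common scale, so changes are relative to other genes. Values were present for 707 of 45101 rows, of which 64 were control probe sets and stayed out of the tests. Symbols came from the platform annotation and were updated by gene ID through RefSeq (GRCm38.p6) for 597 of 597 singly named probe sets; 26 probe sets had several symbols and 20 none.

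The genotypes were compared in R 4.3.3 by limma 3.58.1 (two-sided, lmFit and eBayes) over all 643 gene probe sets without covariate, with Benjamini-Hochberg adjustment over these and a threshold of 0.05; the script was tested on simulated data. Precision is limited by the number of arrays, which have no read depth. For several probe sets of a gene, the one with the highest mean stood for it in means, pairs and lists. The members, lists, motifs and alternatives were chosen with earlier results of these data known. Named genes were the members, the 2 non-members of smallest p per vascular list (all where 3 or fewer were measured), and the closest gene to each member; Adm and Serpinf1, Pecam1 and the other absent markers, and the marker genes of other cell types were named in addition to describe their lists.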

Additional observations from a re-analysis of the deposited data

How the results depend on the processing

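No member probe set passed an adjusted p under 0.05 in any of its alternatives, where the lowest was 0.163. The probe sets of Tie1, Aqp1, Vcam1 and Hey1 kept their direction in all 14, and Nr2f2 1416160_at kept it in the 12 that it entered. Several alternatives could not turn a sign, as they leave the estimated difference unchanged by construction. They were the gene-level fit, the fit without the dimmest 25%, the prior variance that follows the mean level and the replicate block. The same holds for the mean over the 6 genes. The signs that turned were those of Nr2f2 1416158_at with centring (-0.00734) and of Nr2f2 1416159_at with array weights (0.0428). With each array left out, the difference was -0.0550 to 0.0271 for Cd34, -0.0501 to 0.152 for 1416158_at and -0.410 to 0.123 for 1416159_at. The mean over the 6 genes stayed within 1 SD between hearts (0.131) in the 17 alternatives tried for it, between -0.116 with the spike covariate and 0.0863 without knockout replicate 1. With array weights 1 member, Aqp1 (0.36), had an unadjusted p under 0.05 in limma, beside 80 of all 643 probe sets. With the spike covariate 1 member, Vcam1, was under this threshold, beside 66 of all 643. Leaving out single arrays gave 0 to 2 members at an unadjusted p under 0.05 and 0 to 4 without overlap. Over all 643 probe sets, 2 were called with a prior variance that follows the mean level. Leaving out single arrays gave 42 to 88 at an unadjusted p under 0.05 in limma (42 without knockout replicate 2) and 162 to 215 without overlap, where 66 and 120 were found with all arrays. A count without overlap can only stay or rise by construction when an array is left out. The median r between member genes was -0.0295 after quantile normalization, 0.0778 after centring, and 0.209 to 0.579 with single arrays left out; these alternatives, like the other probe sets of Nr2f2 and the mean without Aqp1, were chosen after seeing the data. The labels number replicates 1 to 3 in both genotypes, but the deviations of same-numbered arrays from their group means correlated at -0.24, -0.10 and 0.19, and not every array correlated best with its own number, so the numbers were not taken to pair hearts. With the replicate number as a block the mean over the 6 genes kept its value of 0.00671, no member was called, and limma gave 51 of the 643 probe sets an unadjusted p under 0.05. The fit without the dimmest 25% of probe sets and the gene-level fit did not include 1416158_at and 1416160_at. Beyond what the construction of an alternative shows, the cause was not tested. With 3 arrays per genotype, member intervals reach up to 0.60 log2 units on either side, and no array-specific background level was used.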
